A study of Homo sapiens with 4 samples.

Results

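Segments of chromosomes 9, 13 and 22 that are rearranged in K562 cells were examined as a set of 481 enhancers and promoters, of 33948 elements in the whole table. The set holds every distinct element that starts in chr9:130000000-134000000 (106 elements, called 9q34 here), chr13:80000000-108100000 (127 elements, 13q31-q33) or chr22:11000000-25000000 (248 elements, 22q11), in hg38 coordinates. Of these, 342 are typed as active enhancers and 139 as active promoters, with a median length of 1512 bp. The windows were chosen by the trans scores of the same table, so the excess of trans contacts inside them is a description and has no test.

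K562 is an established leukaemia cell line, and all groups share its BCR-ABL1 fusion. The measured groups were K562 cells labelled RUNX1 R320*, a nonsense change in a transcription factor of blood formation (R320*), and K562 cells labelled RUNX1 wild type (WT). Each genotype had 2 libraries, 4 in all, and the table gives them as 1 pooled score per connection and genotype. GRID-seq joins an RNA through a linker to the DNA it lies beside in fixed nuclei, so each connection names an RNA and an element. There is therefore no replicate check on any difference below, and the SDs given describe the spread over connections. Whether the mutant cells were 1 clone, and whether libraries came from separate cultures, is not stated in the labels. Of the erythroid marker genes listed for K562, 4 of 11 (HBG2, HBE1, LMO2 and TFRC) appear as RNAs in the table, against 1 of 10 (ITGA2B) for other blood cells.

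The BCR-ABL1 fusion joins BCR on chromosome 22, which encodes a protein with kinase and GTPase-regulating domains, to the tyrosine kinase gene ABL1 on chromosome 9. K562 is known to carry this fusion in many copies on marker chromosomes together with further material of 9q34, 22q11 and 13q31, and a NUP214-XKR3 fusion has been described in it. A nascent RNA usually meets the chromatin around its own gene. The table types each connection on the reference chromosomes as local, as cis within a chromosome or as trans between chromosomes, so an RNA and an element that lie side by side on a rearranged chromosome are still typed as trans when the reference places them on different ones. Below, a partner RNA is a trans RNA whose gene, by its RefSeq position, starts in another of the 3 segments.

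The promoters of genes on which the contacts turn are printed below as the 250 bases upstream of the RefSeq start, 5′ to 3′ (GRCh38.p14). BCR, NUP214, MIR17HG and GPC5 lie inside the stretches with partner RNAs, and EXOSC2 and PRRC2B have the nearest promoter elements on either side of the 9q34 stretch, where no trans RNA was listed in R320* or WT. Capitals mark the RUNX letters TGTGGT or TGCGGT and the GATA letters AGATAA or TGATAA, searched on both strands.
BCR promoter, chr22:23180259-23180508, strand +: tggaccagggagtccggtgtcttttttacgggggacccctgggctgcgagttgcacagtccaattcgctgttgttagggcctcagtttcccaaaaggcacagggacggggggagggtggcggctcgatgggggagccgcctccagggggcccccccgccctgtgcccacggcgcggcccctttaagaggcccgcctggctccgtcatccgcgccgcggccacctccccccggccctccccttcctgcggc
NUP214 promoter, chr9:131125336-131125585, strand +: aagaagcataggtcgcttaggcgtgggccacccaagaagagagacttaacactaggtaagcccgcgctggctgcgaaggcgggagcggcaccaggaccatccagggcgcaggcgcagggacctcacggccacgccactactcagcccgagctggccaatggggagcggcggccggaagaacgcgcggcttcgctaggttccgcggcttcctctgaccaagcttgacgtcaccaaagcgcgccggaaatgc
MIR17HG promoter, chr13:91347437-91347686, strand +: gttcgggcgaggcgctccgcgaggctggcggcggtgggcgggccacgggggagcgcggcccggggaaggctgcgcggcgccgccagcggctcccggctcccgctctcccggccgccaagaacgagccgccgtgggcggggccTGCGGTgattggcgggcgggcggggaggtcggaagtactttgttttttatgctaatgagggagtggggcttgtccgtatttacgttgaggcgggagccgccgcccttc
GPC5 promoter, chr13:91398371-91398620, strand +: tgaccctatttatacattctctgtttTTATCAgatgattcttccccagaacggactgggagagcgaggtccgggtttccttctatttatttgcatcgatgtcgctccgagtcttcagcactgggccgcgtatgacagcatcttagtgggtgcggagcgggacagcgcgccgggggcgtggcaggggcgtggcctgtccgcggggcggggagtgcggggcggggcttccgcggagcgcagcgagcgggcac
EXOSC2 promoter, chr9:130693510-130693759, strand +: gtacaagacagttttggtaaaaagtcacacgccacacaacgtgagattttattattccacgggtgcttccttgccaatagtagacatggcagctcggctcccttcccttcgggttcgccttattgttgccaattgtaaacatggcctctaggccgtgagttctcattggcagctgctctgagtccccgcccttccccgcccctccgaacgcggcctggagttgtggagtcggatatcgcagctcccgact
PRRC2B promoter, chr9:131373401-131373650, strand +: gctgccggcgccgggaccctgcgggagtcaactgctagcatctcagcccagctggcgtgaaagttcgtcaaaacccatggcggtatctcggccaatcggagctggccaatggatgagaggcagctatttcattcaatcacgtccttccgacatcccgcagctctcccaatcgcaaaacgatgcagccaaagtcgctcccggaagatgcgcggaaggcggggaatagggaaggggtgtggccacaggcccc
The MIR17HG promoter held 1 RUNX match (TGCGGT) and the GPC5 promoter 1 GATA match, the reverse complement of TGATAA. The other 4 held neither, while 16.3% of the 35116 promoter windows in the RefSeq table held a RUNX match and 14.6% a GATA match. In these windows the guanine and cytosine content ran between 54.4% for EXOSC2 and 73.2% for MIR17HG.

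The MIR17HG promoter element (chr13:91345455-91352730) spans the 6 hairpins of the miR-17-92 cluster, a growth-promoting microRNA cluster processed from the MIR17HG transcript. Its mature guides are shown because MIR17HG RNA was listed in R320* alone, with the seed (bases 2 to 8) in capitals. They group into a shared seed of miR-17 and miR-20a, a shared seed of miR-19a and miR-19b, and single seeds of miR-18a and miR-92a. The assay does not measure the mature microRNAs.
miR-17-5p, chr13:91350618-91350640, strand +: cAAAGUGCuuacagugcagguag
miR-20a-5p, chr13:91351072-91351094, strand +: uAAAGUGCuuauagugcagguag
miR-18a-5p, chr13:91350756-91350778, strand +: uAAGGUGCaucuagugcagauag
miR-19a-3p, chr13:91350939-91350961, strand +: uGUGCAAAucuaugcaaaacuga
miR-19b-3p, chr13:91351245-91351267, strand +: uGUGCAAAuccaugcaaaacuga
miR-92a-3p, chr13:91351361-91351382, strand +: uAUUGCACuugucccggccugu

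The elements of the 3 segments held 4122 connections from 337 RNAs. In R320* 2921 of them were listed and in WT 2833, with 1632 in both. All listed scores were above 1.2. The labels do not state why a connection is not listed, so an unlisted one is not read as a measured zero. RNAs from other chromosomes made up most of what these elements met: trans connections were 66.5% of those listed in R320* and 67.4% in WT. In the rest of the table the trans share was 11.8% in R320* and 13.7% in WT. By segment, the share was 68.0% in R320* and 67.3% in WT at 9q34, 48.7% and 47.0% at 13q31-q33, and 69.7% and 70.5% at 22q11. Outside the windows the same chromosomes gave smaller shares, with 14.8% in R320* and 15.9% in WT on the rest of chromosome 9, 3.65% and 6.56% on the rest of chromosome 13, and 6.75% and 5.69% on the rest of chromosome 22. With connections of 1 RNA within 1 Mb merged, the share was 82.2% in R320* and 83.0% in WT in the windows, and 46.1% and 47.2% on the rest of the 3 chromosomes. The trans connections of the segments were also listed in both genotypes more often, at 31.3% of 2934, against 8.47% of 18942 in the rest of the table.

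The trans RNAs did not fill the windows evenly. Runs of elements that met at least 1 partner RNA in both R320* and WT were joined where they lay within 1 Mb, a rule set after the values were seen, and this gave 8 stretches. On 9q34 there was 1 stretch, chr9:130710782-131279032, of 22 elements and 568 kb, which begins at the ABL1 promoter and ends at the promoter of FAM78A. On 13q31-q33 there were 4. The first held 2 enhancers at chr13:80591847-80599853, and the largest 19 elements at chr13:90415086-91407164, ending at an enhancer inside GPC5. The other two were 2 elements of GPC6 at chr13:93226080-93290828 and 7 elements around FAM155A at chr13:107866383-108007474. On 22q11 there were 3: 2 elements at the low end of the window at chr22:11879946-11902423, 5 elements around XKR3 at chr22:16543201-16825476, and 187 elements over 4257 kb at chr22:18970578-23227115, which begin at DGCR9 and end inside BCR. The first 2 lie far from any named gene, at 811772 and 827494 bp. The name 22q11 stands for the whole window and was not checked against chromosome bands at its low end.

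Together the stretches held 246 of the 481 elements, and 171 of these met a partner RNA in both genotypes. Among the 235 elements outside them, 10 met a partner RNA in R320* and 0 in WT. The selection on partner RNAs fixes this split. The other trans RNAs, whose scores also entered the choice of the windows, lay mostly in the stretches too. Stretch elements met a mean of 5.61 such trans RNAs in R320* and 5.54 in WT, whereas segment elements outside the stretches met 0.243 in R320* and 0.289 in WT. Elements in the rest of the table met 0.285 in R320* and 0.323 in WT. In the largest stretch of each segment the mean was 10.8 in R320* and 10.2 in WT on 9q34, 2.58 and 1.26 on 13q31-q33, and 5.65 and 5.86 on 22q11. Outside the stretches the windows differed, with 0.429 in R320* and 0.357 in WT on 9q34, 0.0722 and 0.0928 on 13q31-q33, and 0.259 and 0.537 on 22q11. Pooled over the segments, the number of own-chromosome RNAs per element differed far less. It was 2.48 in R320* and 2.39 in WT in the stretches, against 1.56 and 1.43 outside them. On 13q31-q33 the order turned, and every stretch had a lower mean than the elements outside. The largest stretch there had 1.37 in R320* and 0.263 in WT, against 1.78 and 1.57 outside. Promoters of the stretches met more trans RNAs (11.6 in R320* and 10.95 in WT, 61 promoters) than their enhancers did (6.31 and 6.35, 185 enhancers), and they were also longer, at a median of 3249 bp against 1229 bp. The element that met most trans RNAs was the promoter element at YDJC (chr22:21623921-21633858), with 43 in R320* and 47 in WT, 18 of them in both, followed in R320* by the AIF1L enhancer (chr9:131101305-131103247) with 42, against 35 in WT.

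**Figure D1:**
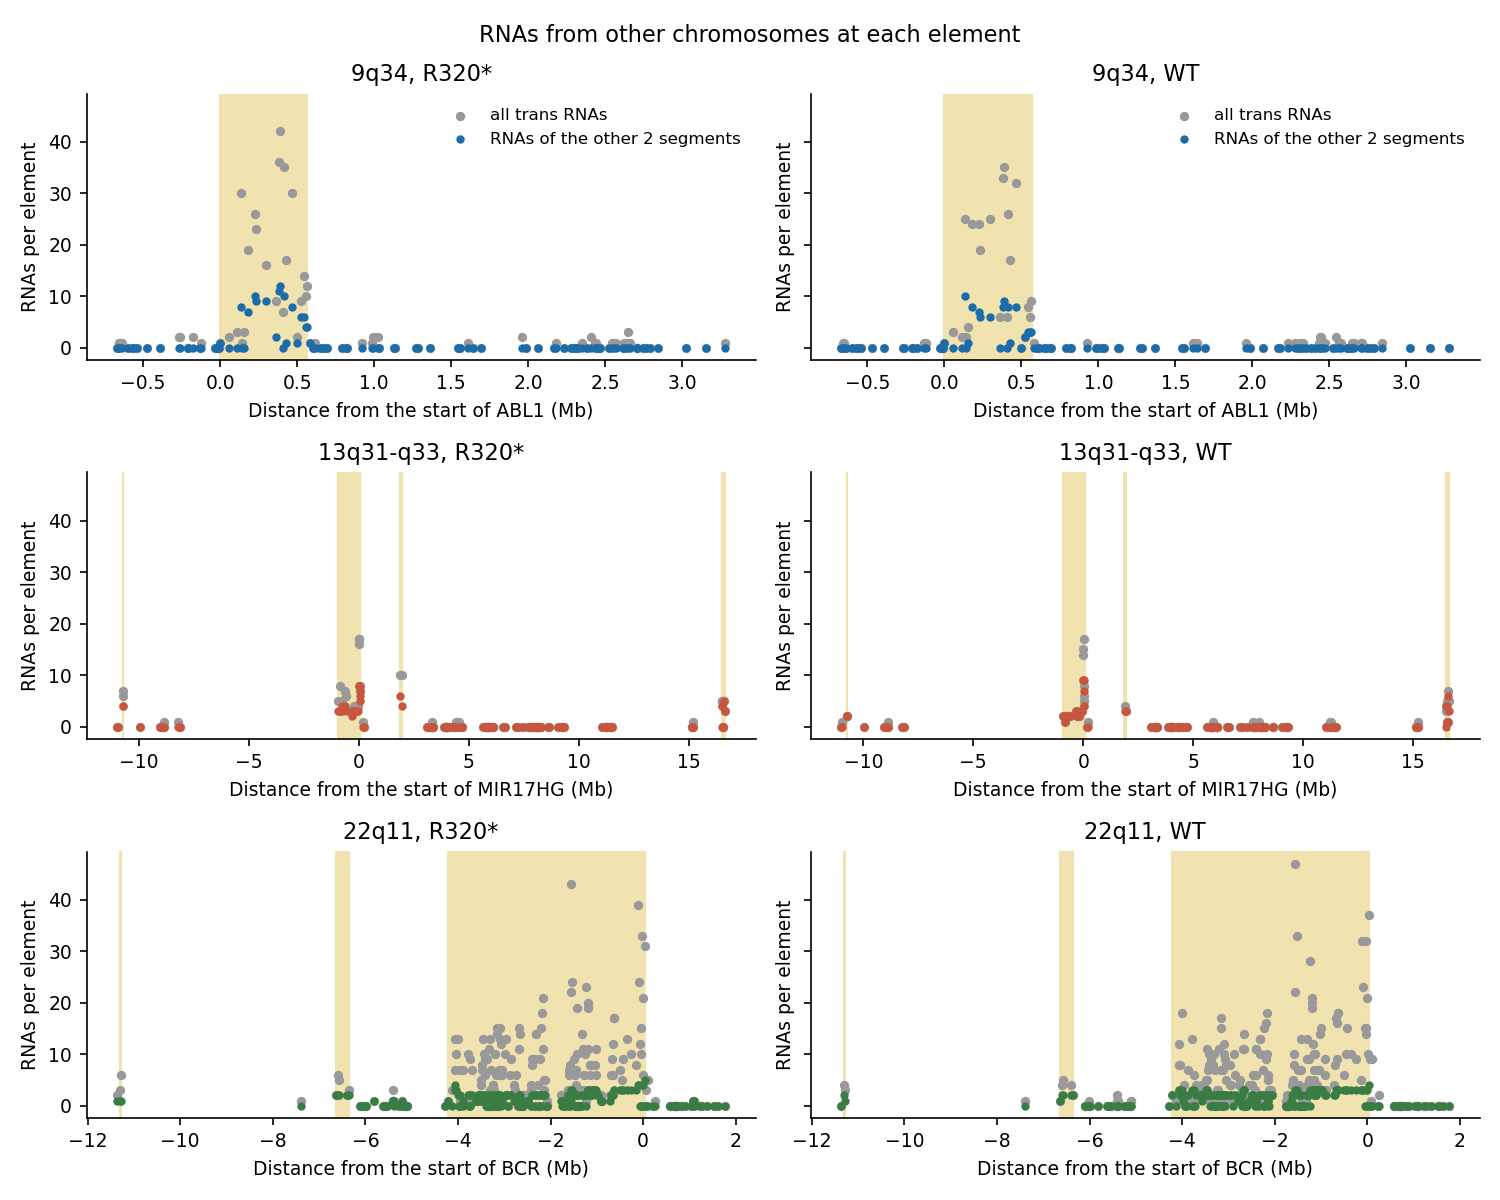
Number of RNAs from other chromosomes met by each element (vertical axis) against distance in Mb from the start of ABL1, MIR17HG or BCR (horizontal axis), with R320* on the left and WT on the right. Grey points are all trans RNAs, coloured points the partner RNAs, and shaded bands the 8 stretches, which hold nearly all elements with many trans RNAs, such as the AIF1L enhancer with 42 in R320* and 35 in WT.

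The limits are described by the elements on either side of them. Before ABL1, an enhancer of EXOSC2, a gene of the RNA exosome, lies 3.14 kb from the ABL1 promoter element (chr9:130704921-130707642) and met 0 trans RNAs in R320* and 0 in WT, and the enhancer before it also met 0 and 0. The ABL1 promoter element itself met 1 trans RNA in each genotype, BCR RNA, at scores of 1.39 in R320* and 1.28 in WT. The next 2 ABL1 enhancers met 2 and 3 trans RNAs in R320* and 3 and 2 in WT. Further into ABL1, the enhancer at chr9:130843738-130846794 met 30 trans RNAs in R320* and 25 in WT, among them BCR RNA at 4.14 in R320* and 4.02 in WT. At the other end the FAM78A promoter met 12 trans RNAs in R320* and 9 in WT. The next element, a PLPP7 enhancer 18.0 kb away, met 1 in R320* and 1 in WT, and the one after it met 0 and 0.

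On 22q11 the limit was inside BCR. The enhancer at chr22:23210555-23227115, the last of the stretch, met 31 trans RNAs in R320* and 37 in WT. The BCR enhancer 14.3 kb further on met 3 in R320* and 9 in WT, none of them a partner RNA, and the following one met 0 in R320* and 1 in WT. A further BCR enhancer (chr22:23281670-23281990) met 5 in R320* and 9 in WT, again with no partner RNA. At SPECC1L, beyond BCR, an enhancer and the promoter each met 1 partner RNA in R320* and 0 in WT. On the centromeric side the DGCR6 promoter met 0 and 0, and the DGCR9 promoter 63.4 kb beyond it met 1 in R320* and 2 in WT. On 13q31-q33 the last element of the main stretch lies in GPC5, which encodes a glypican, a cell surface proteoglycan, and it met 8 trans RNAs in R320* and 5 in WT. The next GPC5 enhancer, 128 kb away, met 1 in R320* and 0 in WT. The longest runs of neighbouring elements that each met a partner RNA in both genotypes were 4 elements on 9q34, 19 on 13q31-q33 and 34 on 22q11.

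The windows themselves were wider than this signal. The elements just inside them met 0 partner RNAs in either genotype at both ends of 9q34, at the low end of 13q31-q33 and at the high end of 22q11. The exceptions were the last 13q31-q33 element, with 3 partner RNAs in R320* and 3 in WT, and the first 22q11 element, with 1 in R320* and 0 in WT. All 5 elements just outside the windows met 0 partner RNAs in R320* and WT.

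The connections that set the stretches were also counted from the side of the RNAs. Because the values are the same, this split is a description and no second line of evidence for the limits. Of the 52 RNAs with a gene in the segments, 31 have a gene that overlaps a stretch, and 20 of these met elements of another segment. Of the 21 RNAs whose gene lies outside the stretches, 2 did so, CECR2 and MICAL3, both of 22q11, with 5 connections in R320* and 3 in WT between them. PRRC2B, RAPGEF1 and GPR107, which have many own-chromosome contacts on 9q34, had 0 partner connections, as had MBNL2, ABCC4 and UBAC2 on 13q31-q33. Connections typed as trans were 52.7% in R320* and 50.1% in WT of all connections of RNAs with a gene in a stretch, against 3.49% in R320* and 3.72% in WT for the other segment RNAs. By segment, stretch RNAs had 92.4% in R320* and 93.2% in WT on 9q34, and 75.9% and 97.4% on 13q31-q33. The gap was smaller on 22q11, with 27.3% in R320* and 20.3% in WT for the 25 stretch RNAs, against 15% and 8.57% for the 4 others.

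Over the whole genome, the trans contacts of the segment RNAs went mostly to the other segments. They numbered 635 in R320* and 565 in WT, and 505 in R320* (79.5%) and 478 in WT (84.6%) lay in a partner segment. The segments hold 1.42% of all elements, but they were chosen by these trans scores, so the high shares are a description. Within 22q11 and 9q34, RNAs with a gene in a stretch seldom met elements outside the stretches. On 22q11, RNAs with a gene in a stretch met stretch elements in 506 connections in R320* and 520 in WT, and elements of the window outside the stretches in 1 and 1. RNAs with a gene outside met stretch elements in 14 connections in R320* and 16 in WT, and outside elements in 72 and 63. On 9q34 the crossing was one-sided: stretch RNAs met outside elements 0 times in R320* and once in WT, while RNAs of neighbouring genes met stretch elements 30 times in R320* and 22 times in WT. On 13q31-q33 stretch RNAs met stretch elements in 17 connections in R320* and 1 in WT, and outside elements in 3 and 1. RNAs with a gene outside met stretch elements there in 14 connections in R320* and 5 in WT, and outside elements in 170 and 151.

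By the gene lists drawn up for the segments with earlier results known, 3 of the 8 listed RNAs from genes telomeric of and including ABL1 met a partner segment in R320* and the same number in WT, and 0 of the 2 from the centromeric side did in either genotype. For genes of 22q11 up to and including BCR it was 15 of 24 in R320* and 11 of 24 in WT, and 0 of 1 beyond BCR. For 13q31 to q33 it was 2 of 11 in R320* and 1 of 11 in WT.

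Contacts between the segments came to 505 in R320* and 478 in WT, with 411 in both of 572 in all (71.9%). They involved 22 RNAs and 198 elements. Neighbouring elements that meet 1 RNA are not independent, and with such connections merged within 1 Mb the numbers were 52 in R320* and 42 in WT. Their scores were the highest of any class in the segments. Over connections listed in both genotypes, the median was 2.73 in R320* and 2.80 in WT for partner RNAs, 2.06 and 2.07 for local RNAs, 1.63 and 1.61 for cis RNAs and 1.54 and 1.54 for other trans RNAs. Trans connections in the rest of the table had medians of 1.53 in R320* and 1.53 in WT.

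**Figure D2:**
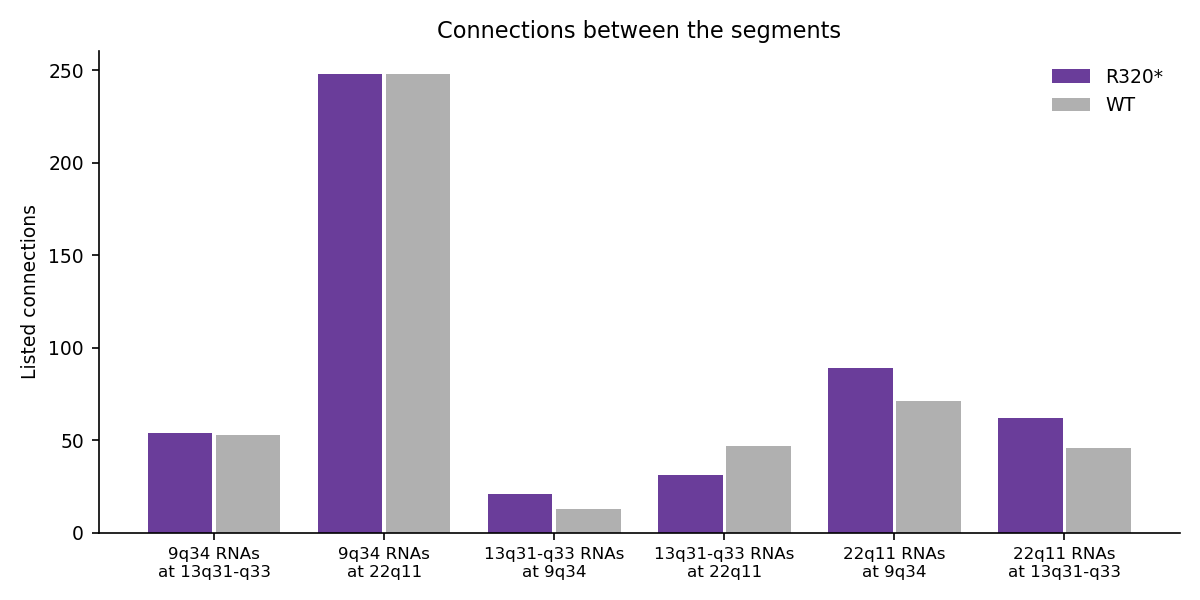
Number of listed connections (vertical axis) for each ordered pair of the segment that holds the RNA's gene and the segment that holds the element, with R320* on the left of each pair of bars and WT on the right. RNAs of 9q34 at 22q11 make up 248 connections in R320* and 248 in WT, and RNAs of 13q31-q33 at 22q11 are the pair in which R320* has fewer, 31 against 47 in WT.

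RNAs of 9q34 were the main visitors. They made 248 connections in R320* and 248 in WT to 22q11 (224 in both), and 54 in R320* and 53 in WT to 13q31-q33 (53 in both). Only 3 RNAs carried these, ABL1, NUP214 and LAMC3. ABL1 RNA met 138 elements of 22q11 in R320* and 130 in WT. RNA of NUP214, a nuclear pore protein gene that also takes part in leukaemia fusions, met 107 in R320* and 117 in WT. The 2 RNAs met largely the same elements: 121 elements of 22q11 met both, which is 85.2% of those that met ABL1 RNA and 95.3% of those that met NUP214 RNA. On 13q31-q33 each of 27 elements met both RNAs. LAMC3, a laminin subunit gene between them, had 3 connections in R320* and 1 in WT, all to 22q11.

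The highest score among them was that of ABL1 RNA at the promoter of RSPH14, a gene just centromeric of BCR (chr22:23069665-23070763), with 4.91 in R320* and 4.87 in WT. At the BCR promoter element (chr22:23178404-23181734) ABL1 RNA scored 4.46 in R320* and 4.34 in WT, while BCR's own RNA scored 1.48 in R320* and 1.40 in WT. At the last BCR enhancer of the stretch the scores of ABL1 RNA were 4.35 in R320* and 4.28 in WT, and those of BCR RNA 1.70 and 1.68. The reverse held on chromosome 9. At the ABL1 enhancer at chr9:130843738-130846794, BCR RNA scored 4.14 in R320* and 4.02 in WT, and ABL1 RNA, typed there as local, 1.68 and 1.66. How the score treats the expected local level of an RNA is not stated in the labels.

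Scores of ABL1 RNA on 22q11 were higher nearer to BCR. Over elements listed in both genotypes, the median was 3.88 ± 0.641 in R320* and 4.11 ± 0.547 in WT (SD over 11 elements) within 0.5 Mb of the BCR start. It was 3.20 ± 0.423 in R320* and 3.22 ± 0.436 in WT at 1 to 2 Mb (31 elements), and 2.51 ± 0.340 in R320* and 2.55 ± 0.355 in WT at 3 to 4.5 Mb (40 elements). NUP214 RNA had lower scores with the same order: 3.16 in R320* and 3.44 in WT within 0.5 Mb, 2.61 and 2.79 at 1 to 2 Mb, and 2.26 and 2.42 at 3 to 4.5 Mb. The distant elements around XKR3 broke this order, and at an enhancer there (chr22:16781359-16782061) NUP214 RNA scored 4.10 in R320* and 4.14 in WT. For ABL1 RNA the medians of the 2 genotypes do not give the difference at single elements. Element by element, the median difference, R320* minus WT, was 0.024 (SD 0.184) within 0.5 Mb. It was -0.0697 (SD 0.157) at 1 to 2 Mb and -0.11 (SD 0.229) at 3 to 4.5 Mb.

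**Figure D3:**
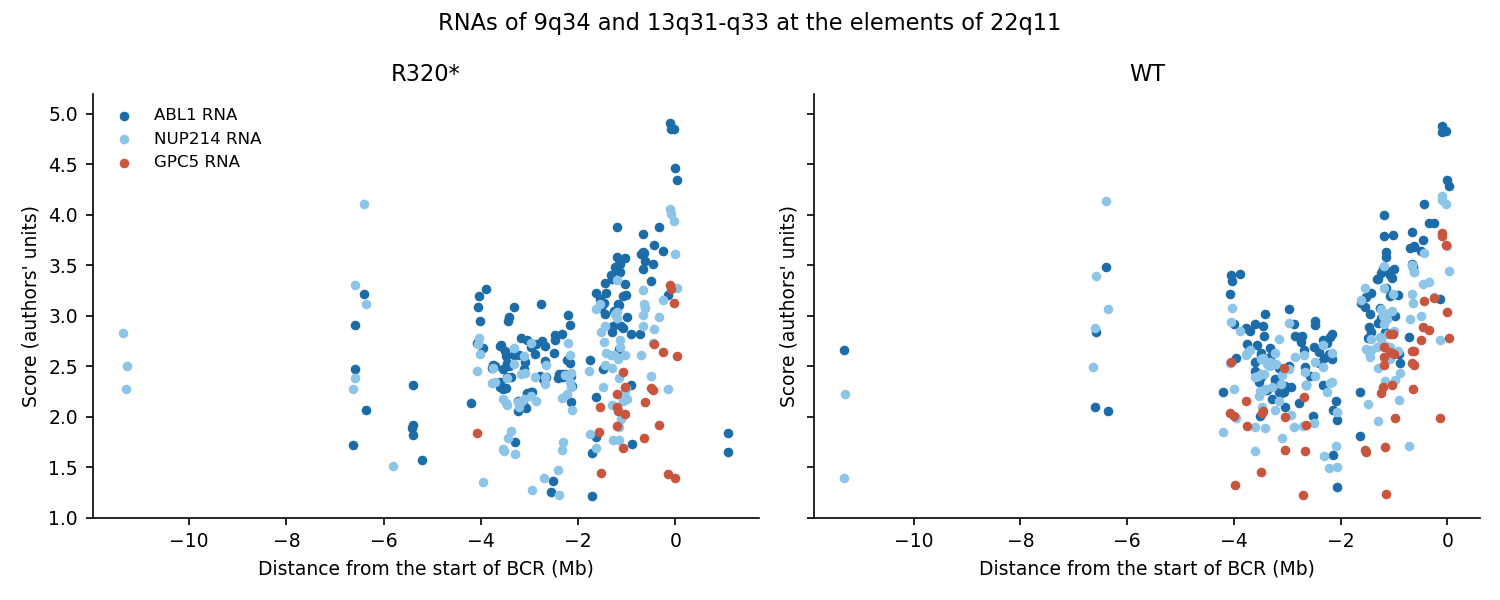
Score of ABL1, NUP214 and GPC5 RNA (vertical axis, the authors' units) at each element of 22q11 against distance from the start of BCR in Mb (horizontal axis), with R320* on the left and WT on the right. Scores climb towards BCR, where ABL1 RNA reached 4.91 in R320* and 4.87 in WT, and GPC5 points are fewer and lower in R320*.

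RNAs of 22q11 visited 9q34 in 89 connections in R320* and 71 in WT, and 13q31-q33 in 62 and 46. More RNAs took part than from 9q34, with 16 at 9q34 and 7 at 13q31-q33. BCR RNA met 15 elements of 9q34 in R320* and 14 in WT, and where both were listed its score was higher in R320* at 13 of 14, by a median of 0.16. RNA of XKR3, a membrane protein gene of the XK family, met 9 in each genotype. Its scores were the highest of the pair, with a median of 4.12 in R320* and 4.45 in WT and a top value of 4.91 in R320* and 4.73 in WT at the AIF1L promoter (chr9:131095977-131097088). These were the same 9 elements in both genotypes. Element by element, XKR3 RNA was higher in R320* at 5 and lower at 4, with a median difference of 0.0469. RNAs of HIRA, a histone chaperone gene, and of its neighbour C22orf39 met 11 and 12, and 11 and 7, elements of 9q34 in R320* and WT. The genes of this pair lie within 10 kb of each other, and reads of 1 could be counted to the other, so they are not 2 separate observations.

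Over both genotypes together, the 2 elements that met most partner RNAs on 9q34 were at AIF1L, an actin-binding protein gene beside NUP214. Its enhancer at chr9:131101305-131103247 met 12 partner RNAs in R320* and 9 in WT. In WT the ABL1 enhancer at chr9:130843738-130846794 met more, with 8 in R320* and 10 in WT. At the AIF1L enhancer XKR3 RNA led, with 4.52 in R320* and 4.45 in WT, followed by BCR RNA with 3.79 in R320* and 3.64 in WT. CLTCL1, TOP3B, UBE2L3 and MIR17HG RNA were listed there in R320* alone, and PI4KA RNA in WT alone. On 13q31-q33 the MIR17HG promoter element and the enhancers at chr13:91357002-91363589 and chr13:91368940-91369879 each met 8 partner RNAs in R320* and 9 in WT. On 22q11 the last BCR enhancer led, with 5 in R320* and 4 in WT.

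The 13q31-q33 stretches differed among themselves. NUP214 RNA was listed at 27 of their 30 elements in each genotype, and ABL1 RNA at 27 in R320* and 26 in WT. In the 2 enhancers of the first stretch ABL1 RNA scored 3.41 and 2.94 in R320* and 3.07 and 2.63 in WT. The 22q11 RNAs were less evenly spread. In the 6 elements of the main stretch that start before 91 Mb, BCR RNA was listed at 5 in R320* and 0 in WT. In the 13 elements that start after 91 Mb, BCR RNA was listed at 10 in R320* and 8 in WT. HIRA, DGCR2 and CECR2 RNAs were listed mostly at the elements around MIR17HG, and at its promoter element they scored 2.88, 3.08 and 2.86 in R320* and 2.81, 2.80 and 2.77 in WT. DGCR2 encodes an adhesion receptor-like protein, and CECR2 a chromatin remodelling protein. At the GPC6 enhancer (chr13:93289940-93290828) NUP214 RNA had its highest mean 13q31-q33 score, with 4.01 in R320* and 3.70 in WT. In the last stretch BCR RNA was listed at the same 4 elements in both genotypes, and scored lower in R320* at all 4, with a median difference of -0.372.

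**Figure D4:**
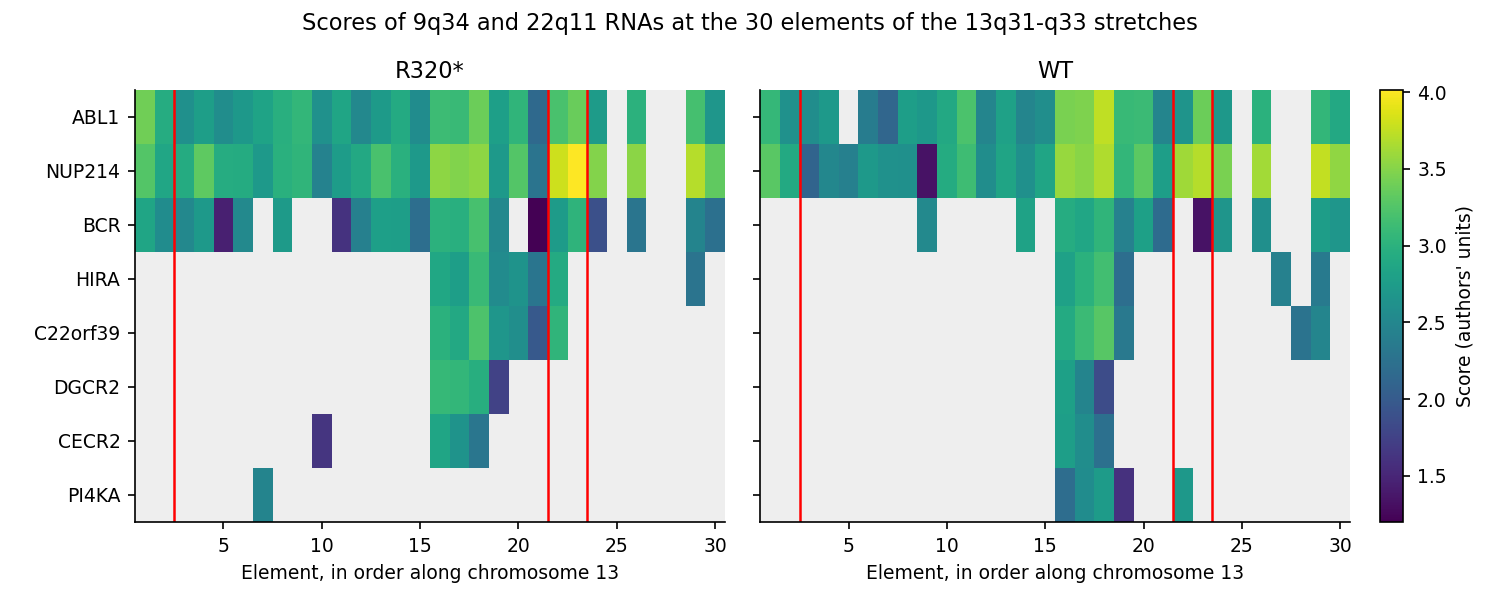
Scores (colour, the authors' units; light grey, not listed) of 8 RNAs from 9q34 and 22q11 in the 30 elements of the 13q31-q33 stretches, in order along the chromosome, with R320* on the left and WT on the right and red lines between stretches. NUP214 is listed at 27 of the 30 elements in each genotype and ABL1 at 27 in R320* and 26 in WT, while BCR appears at the 2 elements of the first stretch in R320* alone.

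Among RNAs with a RefSeq position, those of 13q31-q33 in the other segments came from 2 genes, GPC5 and MIR17HG. AL445255.1 RNA had no RefSeq position and was not counted as a partner RNA, although the table places its promoter element in the 13q31-q33 window. It had 6 trans connections to the segments in R320* and 0 in WT. GPC5 RNA met 25 elements of 22q11 in R320* and 47 in WT, with 24 in both. At 23 of these 24 the score was lower in R320*, and the median difference was -0.486 (SD over connections 0.382). Within 0.5 Mb of BCR it met 11 elements in each genotype, with median scores of 2.60 in R320* and 3.04 in WT, while it met 0 in R320* and 4 in WT at 2 to 3 Mb, and 1 in R320* and 12 in WT at 3 to 4.5 Mb. At the BCR promoter element GPC5 RNA scored 1.40 in R320* and 3.04 in WT, a difference of -1.64, the most negative among connections between the segments. On 9q34 it met the same 13 elements in both genotypes and scored lower in R320* at 12 of 13, by a median difference of -0.177. At the FIBCD1 promoter, its highest 9q34 score by the mean of both genotypes, it had 3.32 in R320* and 3.24 in WT.

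MIR17HG RNA had 33 connections in R320* and 0 in WT anywhere in the table. Of these, 14 were to partner segments, 8 at 9q34 and 6 at 22q11, and 19 to chromosome 13. At the BCR promoter element it scored 3.65 in R320*, above the 1.40 of GPC5 RNA at the same element. The MIR17HG contacts on its own chromosome also lay in the stretches: 2 in the first, 12 in the main and 3 in the last stretch, against 2 elsewhere. PI4KA RNA, from a phosphatidylinositol kinase gene of 22q11, had the opposite pattern, with 1 partner connection in R320* and 9 in WT. GNAZ, CLTCL1, TOP3B and PRAME RNA had 2, 3, 3 and 2 partner connections in R320* and 0 in WT.

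Over all contacts between the segments that were listed in both genotypes, the R320* score was higher in 156 and lower in 255, with a median difference of -0.0758 (SD 0.388). The median was 0.0394 over the 52089 connections of the table listed in both. By pair, the median differences were -0.115 for 9q34 RNAs at 22q11, 0.00525 for 9q34 RNAs at 13q31-q33, 0.0474 for 22q11 RNAs at 9q34 and 0.0583 for 22q11 RNAs at 13q31-q33. For 13q31-q33 RNAs it was -0.177 at 9q34 and -0.486 at 22q11, and the last alone was larger than the SD over its connections. NUP214 RNA at 22q11 was lower in R320* at 74 of 97 connections, by a median difference of -0.206. ABL1 RNA was lower at 78 of 126, and after centring on the median of the table at 91 of 126.

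**Figure D5:**
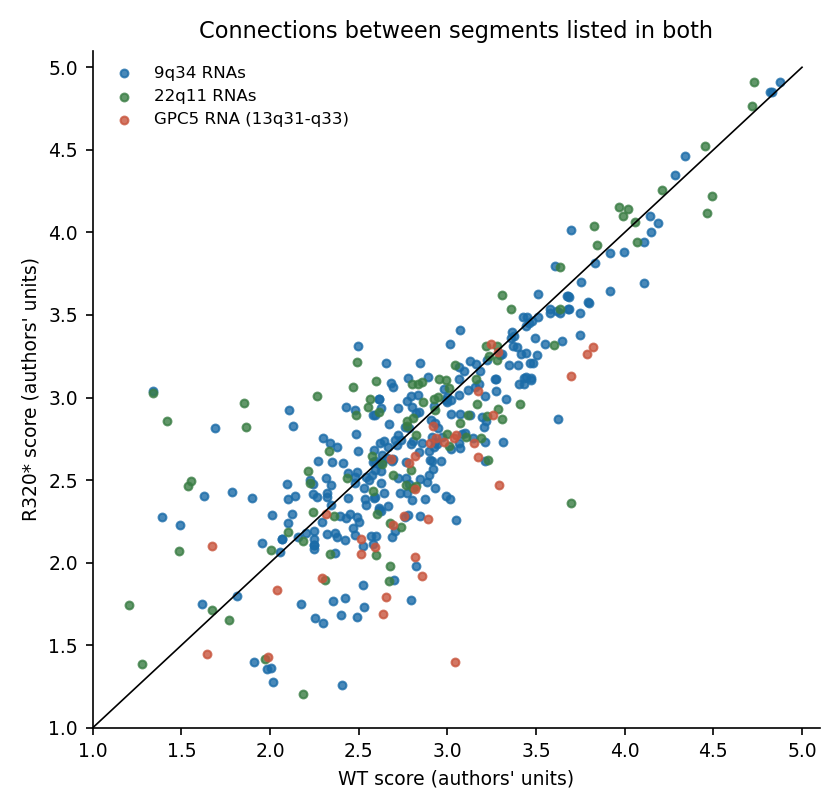
R320* score (vertical axis) against WT score (horizontal axis), both in the authors' units, for the 411 connections between segments that were listed in both genotypes, coloured by the segment of the RNA. Points on the line are equal; GPC5 RNA lies under it, with 23 of 24 connections to 22q11 lower in R320*.

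Score differences of at least 1 unit were few. Among the 1632 connections of the segments listed in both genotypes, 7 were higher in R320* and 6 lower, which is 0.429% and 0.368%. Over the whole table, segments included, the shares were 0.0998% higher and 0.0749% lower. Of all 2524 trans connections listed in both genotypes, segments included, 7 were higher and 8 lower, which is 0.277% and 0.317%. The segments held 919 of these trans connections, with 5 of the 7 higher and 6 of the 8 lower. The trans shares are therefore not a background apart from the segments. Of the 13 segment connections of any type that differed by at least 1 unit, 9 were contacts between segments. Those higher in R320* included NUP214 RNA at an enhancer near LINC00380 (chr13:91016988-91018239; 3.04 in R320* and 1.34 in WT), BCR RNA at the GPC6 enhancer (3.03 in R320* and 1.34 in WT), DGCR2 RNA at the ABL1 enhancer (2.86 in R320* and 1.42 in WT) and LAMC3 RNA at the last BCR enhancer (2.81 in R320* and 1.69 in WT). Those lower in R320* included XKR3 RNA at the ABL1 enhancer (2.36 in R320* and 3.70 in WT), ABL1 RNA at an enhancer near MED15 (1.26 in R320* and 2.41 in WT) and NUP214 RNA at an enhancer near PPM1F (1.78 in R320* and 2.79 in WT).

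The number of RNAs met was compared over the 312 segment elements listed in both genotypes with a mean of at least 2 RNAs. At least 2-fold more RNAs were met in R320* at 35 (11.2%) and at least 2-fold fewer at 20 (6.41%), where the whole table gave 12.4% and 9.6%. Among elements of block 2 alone, the second of the table's 2 lists of elements, the order turned, with 8 more and 10 fewer. The segments differed. On 13q31-q33, 20 of 74 elements (27.0%) met more RNAs in R320* and 3 (4.05%) fewer, with a median log2 ratio of 0.20 and an SD over elements of 0.845. On 9q34 the numbers were 7 more and 1 fewer of 58, and on 22q11 8 more and 16 fewer of 180. With RNAs listed in both genotypes alone, which leaves out MIR17HG, 13q31-q33 had 13 more and 1 fewer of 59. Whether the segments differ beyond the spread between libraries was not tested.

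The 13q31-q33 elements with the largest ratios were the first enhancer of the first stretch, with 8 RNAs in R320* and 2 in WT, and elements near the noncoding gene LINC01049 at chr13:90492911-90493319 and chr13:90689024-90690331, each with 8 in R320* and 2 in WT. In all 3 the WT pair was ABL1 and NUP214. The elements with the lowest ratios lay outside the stretches, at EFNB2, an ephrin ligand gene (chr13:106499824-106500428; 1 RNA in R320* and 4 in WT), and at UBAC2 (1 in R320* and 3 in WT). On 9q34 an enhancer of NUP214 (chr9:131235260-131235548) met 10 RNAs in R320* and 3 in WT, and an enhancer near ASS1, the argininosuccinate synthase gene, 5 in R320* and 1 in WT. On 22q11 an enhancer at chr22:22270033-22270319 met 1 in R320* and 6 in WT.

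RNAs not placed in a segment supplied the largest number of trans connections, 1438 in R320* and 1432 in WT. They came from 275 RNAs, AL445255.1 included, 30 of which reached all 3 segments. RNAs without a RefSeq position made 383 of the 2362 connections listed in either genotype. Of all 2362, 508 (21.5%) were listed in both genotypes, against 71.9% for partner RNAs. The abundant nuclear noncoding RNAs were among the leading visitors. MALAT1 RNA made 100 connections in R320* and 98 in WT, and NEAT1 RNA, the scaffold of paraspeckles, 81 and 66. LMAN1 RNA, from a cargo receptor gene, made 76 and 78. RNA of SMYD3, a lysine methyltransferase gene on chromosome 1, made 45 and 62, and 48.6% of all its trans connections were to these segments. The share was 11.03% for MALAT1 RNA and 5.81% for NEAT1 RNA. As a background, the 2362 connections of these visiting RNAs in the segments stand beside 18942 trans connections in the rest of the table. The shares of MALAT1 and NEAT1 RNA are therefore not read as a preference for the segments. More connections in R320* than in WT were listed for 136 of the 275 RNAs, fewer for 127 and as many for 12. RNA of BTRC, an F-box protein gene, made 21 in R320* and 0 in WT, and that of PRKCB, a protein kinase C gene, 50 and 33. LINC02163 made 4 in R320* and 30 in WT, and CCDC26 6 and 25.

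Own-chromosome RNAs at the segments were led by genes beside the elements. On 22q11 RNA of DGCR2 met 45 elements in R320* and 55 in WT, and that of CDC45, a DNA replication gene, 36 and 37. On 13q31-q33 RNA of MBNL2, a splicing regulator, met 45 in R320* and 33 in WT, and that of ABCC4, a drug and nucleotide transporter, 34 and 32. On 9q34 RNA of RAPGEF1, a guanine nucleotide exchange factor gene, met 27 in R320* and 19 in WT. None of MBNL2, ABCC4 and RAPGEF1 RNA met a partner segment in either genotype.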

How the data were processed

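RNA contacts with enhancers and promoters were measured by GRID-seq in K562 cells after fixation with 2 mM DSG for 45 minutes and 3% formaldehyde for 10 minutes, per the labels' protocols. The submitters' processing notes name cutadapt 1.12, BWA and bedtools, and the hg38 build. The authors deposited 1 score per genotype for each of 115357 connections; neither labels nor header give its formula, its scale or how libraries were pooled, and sequencing depth is unknown. Scores are 0 or above 1.2, and 0 was read as not listed. A further deposited score column equals R320* minus WT. Element coordinates are 0-based in the table and 1-based here. The table lists its elements in 2 blocks, of 20020 and 13928 elements, with no stated difference.

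Gene positions came from a RefSeq table of GRCh38.p14, which matched 2427 of 2637 RNAs by symbol and 70 by an older symbol; 140 had no position and could not count as partner RNAs. Stretches joined elements within 1 Mb. Called were score differences of at least 1 unit and 2-fold differences in RNAs met. With no values per library, no test was possible. Named elements were the 3 per segment with most partner RNAs and the 3 with the largest ratio in each direction. Named RNAs were the 6 trans and 4 own-chromosome RNAs with most connections per segment. Named connections were the 6 largest differences in each direction, 1 per RNA, and the highest per pair of segments. Some RNAs that the rule names are not reported here. Other names were chosen after their values were seen. The members, windows and gene lists were chosen with earlier results of these data known. Counting used Python with pandas, and was tested on 20 simulated tables, where every planted limit was found. Each planted limit held a partner RNA in both genotypes, so this checks the code and not the accuracy of the limits reported. Settings tried were a score minimum of 1.5, merged connections, each block alone, other call limits, centring, and leaving out ABL1 RNA or GPC5 RNA.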

Additional observations from a re-analysis of the deposited data

How the results depend on the processing

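No paired analysis was possible because the table gives 1 pooled score per genotype, so a block by replicate number, and leaving out a replicate, could not be fitted. With connections of 1 RNA within 1 Mb merged, the segments held 506 connections in R320* and 481 in WT, and contacts between the segments 52 in R320*, 42 in WT and 36 in both. The trans share became 82.2% in R320* and 83.0% in WT. At a score minimum of 1.5 there were 1940 connections in R320*, and the trans share was 70.4% in R320* and 72.1% in WT. In element block 1 alone it was 64.5% in R320*, and in block 2 alone 69.4% in R320* and 69.8% in WT; on 9q34 the blocks gave 53.9% and 80.5% in R320* and 52.5% and 80.5% in WT. Without ABL1 RNA 259 contacts were listed in both genotypes. At a limit of 0.5 units 50 connections were higher in R320* and 74 lower. Elements with 2-fold more and fewer RNAs in R320* numbered 58 and 36 with no minimum. Where elements met 4 RNAs or more on average they numbered 14 and 7, and in block 2 alone 8 and 10. Block 1 alone had 10 with fewer. Shares over the whole table were not counted at these settings, so a lean particular to the segments cannot be read from them. The causes of these shifts were not tested. The 13q31-q33 stretches had the same limits at a minimum of 1.5 and with 2 partner RNAs, and joining within 2 Mb, a setting added after seeing the data, gave 3. At a minimum of 1.5, or with 2 partner RNAs, the 9q34 stretch began at the ABL1 enhancer. In the second case the long 22q11 stretch began at 19107245 and the one at the low end of the window was lost, which left 2 on 22q11. With partner RNAs in either genotype 22q11 had 4, the last at SPECC1L. The stretch around XKR3 then ended at 17966261 and spanned 1423 kb in place of 282 kb, and the one at the low end of the window began at 11817584. Among elements that start between 17 and 18 Mb, 6 met a partner RNA in R320* and 0 in WT. The scale and depth behind the score are unknown, which limits every comparison of levels between RNAs.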
